A study of Mus musculus with 11 samples.

Results

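The genes described here encode the machinery that copies DNA in S phase and the machinery that divides the chromosomes in mitosis. The list held 49 genes, 25 for replication and 24 for mitosis, taken by name, by a rule that uses no measured value, and drawn up with earlier results of these data known. A gene was read from the probe sets that the platform annotation pairs with it alone, and 46 of the 49 were found that way, 23 of each class, among 22180 named genes in all. Rfc4, Ccne2 and Ccnb1 had no such probe set and were not analysed here. Of the 46 members, 43 had 1 probe set. Fen1, Pole and Rrm2 were read from the brighter of 2.

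The 11 arrays measured total RNA of mouse cells during reprogramming, the conversion of a differentiated cell toward a stem cell state by forced transcription factors. Rosa-rtTA+/- mouse embryonic fibroblasts at passage 4, which carry 1 copy of a doxycycline-controlled activator, received 4 doxycycline-inducible (tetO) factors by infection: Oct4, Sox2, Klf4 and Myc. Doxycycline was added 1 day after infection, on day 0, so all reprogramming samples carry the same 4 inducible factors. Cultures of day 6 and day 9 were double sorted on CD49d or on CD73. CD49d+ and CD73+ cells are named poised in the labels and CD73- cells non-poised, and an unsorted total sample was kept at each day, which gives 8 reprogramming arrays. The 3 controls were uninfected Rosa-rtTA+/- fibroblasts at passage 4 (MEF), the partially reprogrammed line SC4 at passage 10, grown with 15% serum, and V6.5 mouse embryonic stem cells at passage 11 (ESC), grown with LIF. SC4 and V6.5 are each 1 cell line, and the labels do not say whether the controls received doxycycline.

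Each of the 11 groups had 1 array and none had a replicate. The labels do not say whether day 6 and day 9 came from separate infections. A test within the reprogramming arrays therefore measured only how far a difference repeated between the days, and a comparison with MEF, SC4 or ESC had no test.

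Replication starts at origins, where the origin recognition complex, Cdc6 and Cdt1 load the ring of Mcm2 to Mcm7 that later becomes the helicase. Cyclin E (Ccne1) with its kinase drives entry into S phase, and E2F transcription factors activate many replication genes at that point. Mitotic genes peak later, in G2 and M phase, and many are controlled through CCAAT boxes bound by NF-Y and through an element called CHR (cell cycle genes homology region). Fibroblasts divide slowly and stop after a limited number of passages, whereas mouse embryonic stem cells cycle fast with a short G1 phase.

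The promoters of the members were searched for these elements because the results below set the classes beside each other. Sequences of 250 bases before the start of transcription came from RefSeq on GRCm38.p6 and were read on both strands. Searched as E2F type were TTTGGCGC, TTTCCCGC and GGCGGGAA, of which the last 2 can overlap, as CHR type TTTGAA and TTCGAA, the latter its own reverse complement, and as NF-Y type CCAAT. The table held 43 promoters of 40 of the 49 members, 22 for replication and 21 for mitosis. E2F letters stood in 7 of the 22 replication promoters (Mcm5, Mcm6, Mcm7, Cdc6, Rrm1, Pola1 and Chaf1a), in 0 of the 21 mitotic promoters and in 2.69% of all 32851 promoters. CHR letters stood in 5 replication promoters, in 10 mitotic promoters and in 17.1% of all promoters. CCAAT stood in 14 replication promoters, in 18 mitotic promoters and in 33.8% of all. CHR and CCAAT stood together in 4 replication promoters, in 10 mitotic promoters (those of Bub1b, Ccnb2, Cdc20, Cdk1, Ect2, Kif11, Mki67, Top2a and Ube2c) and in 6.02% of all promoters. A match is a description of letters, not of a bound site.

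The 150 bases before the start are shown for 4 replication members whose values on the arrays are given below, 5′ to 3′ on the gene's strand, with the matched letters in capitals. The first 3 hold an E2F match, and Ccne1 holds none of the searched letters in this window.
Mcm5, chr8:75109359-75109508, plus strand: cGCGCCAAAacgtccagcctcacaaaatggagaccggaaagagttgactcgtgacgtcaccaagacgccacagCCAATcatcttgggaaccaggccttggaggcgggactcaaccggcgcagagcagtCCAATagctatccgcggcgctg
Cdc6, chr11:98908001-98908150, plus strand: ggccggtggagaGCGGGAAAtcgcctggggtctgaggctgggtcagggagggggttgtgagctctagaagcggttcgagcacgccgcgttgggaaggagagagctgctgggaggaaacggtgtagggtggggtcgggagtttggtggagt
Rrm1, chr7:102441545-102441694, plus strand: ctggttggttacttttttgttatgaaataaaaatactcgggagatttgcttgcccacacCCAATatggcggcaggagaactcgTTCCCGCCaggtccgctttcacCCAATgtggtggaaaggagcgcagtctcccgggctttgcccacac
Ccne1, chr7:38107491-38107640, minus strand: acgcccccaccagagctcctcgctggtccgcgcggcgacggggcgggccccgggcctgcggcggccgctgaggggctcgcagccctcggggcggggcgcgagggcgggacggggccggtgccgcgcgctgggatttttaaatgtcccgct

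The same stretch is shown for 4 mitotic members that hold CHR and CCAAT matches together. Top2a carries 4 CCAAT boxes and 3 CHR matches within these 150 bases, read on either strand.
Cdk1, chr10:69352913-69353062, minus strand: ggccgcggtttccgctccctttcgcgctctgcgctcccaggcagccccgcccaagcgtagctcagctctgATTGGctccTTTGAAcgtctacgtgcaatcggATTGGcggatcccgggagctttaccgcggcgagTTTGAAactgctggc
Top2a, chr11:99024190-99024339, minus strand: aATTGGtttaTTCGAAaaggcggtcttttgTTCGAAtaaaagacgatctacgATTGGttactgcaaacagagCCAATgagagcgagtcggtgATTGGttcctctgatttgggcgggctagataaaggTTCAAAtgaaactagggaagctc
Mki67, chr7:135716380-135716529, minus strand: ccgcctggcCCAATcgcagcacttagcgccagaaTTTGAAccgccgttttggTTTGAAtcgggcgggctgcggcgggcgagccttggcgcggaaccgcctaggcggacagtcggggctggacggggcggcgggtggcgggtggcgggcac
Ube2c, chr2:164769779-164769928, plus strand: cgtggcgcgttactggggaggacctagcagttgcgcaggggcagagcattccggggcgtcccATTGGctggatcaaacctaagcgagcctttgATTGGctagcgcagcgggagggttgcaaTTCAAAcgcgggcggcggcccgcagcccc

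Compared with MEF, every member was brighter on each of the other 10 arrays, as were 23.7% of 14301 genes, and most members by more than 2-fold. Intensity is the linear brightness of the probe set, and 100 is the lowest value deposited, a floor that stands for any level at or below it. In the mean of the 8 reprogramming arrays, 40 of the 46 members were at least 2-fold above MEF, 19 for replication and 21 for mitosis, against 9.57% of 13759 genes. The median difference on the log2 scale was 1.81 for replication members (3.51-fold) and 1.78 for mitotic members (3.43-fold), against 0.02 for all genes. In a mixed culture, fewer cycling cells and less RNA per cell cannot be told apart, and this holds for every comparison here.

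The count was high on each array taken alone. On the day 6 arrays, 41 members were at least 2-fold above MEF in CD49d+ cells (background 9.12% of genes), 41 in CD73+ cells (11.9%), 44 in CD73- cells (11.2%) and 44 in unsorted cells (11%). On the day 9 arrays the counts were 44 in CD49d+ cells (10.8%), 39 in CD73+ cells (11.4%), 41 in CD73- cells (11.7%) and 41 in unsorted cells (8.55%). SC4 and ESC each had 45 members at least 2-fold above MEF, against 11.8% and 12.6% of genes. On all 10 arrays alike the 2-fold line was passed by 36 members, 19 for replication and 17 for mitosis, against 3.52% of genes. The other 10 were Rrm1, Gins2, Rfc3, Fen1, Ccnb2, Cdk1, Cenpf, Kif23, Tpx2 and Rangap1, of which Rrm1 missed it on 9 arrays and Gins2 on 8.

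**Figure D1:**
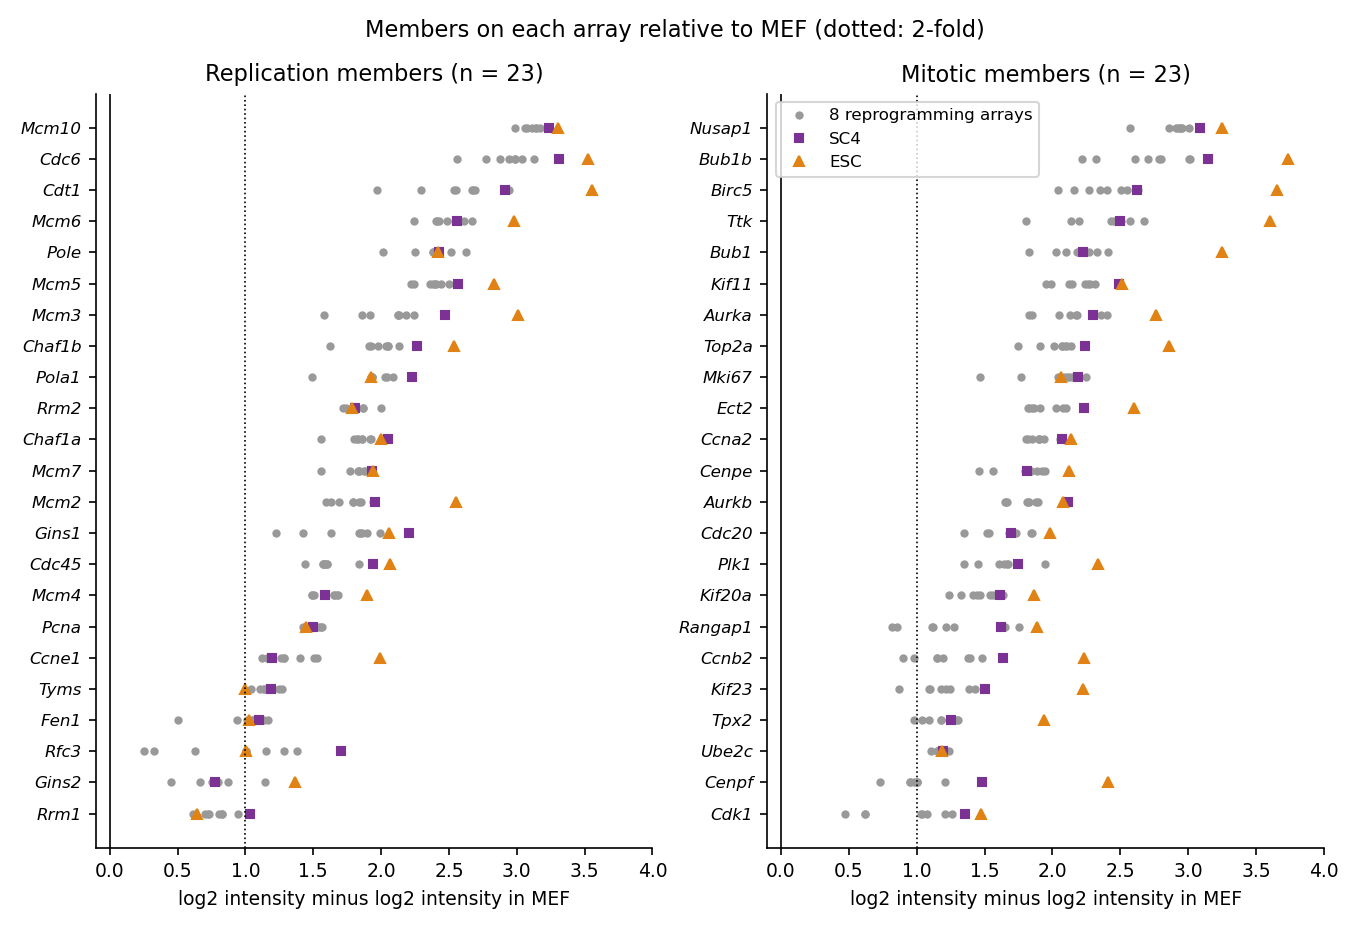
Log2 intensity of each member minus its log2 intensity in MEF, with 1 point per array; grey points are the 8 reprogramming arrays, squares SC4 and triangles ESC, and the dotted line marks 2-fold. All points lie to the right of 0, and among mitotic members ESC lies above every reprogramming array for 21 of 23, against 27.3% of all genes.

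The replication members that load and start the helicase ranged from 1.72-fold (Gins2) to 8.65-fold above MEF in the mean of the 8 arrays, the latter for Mcm10, which helps to activate the helicase. Cdc6, which loads the Mcm ring, was at the floor in MEF and at 683, 768, 792 and 822 at day 6 in CD49d+, CD73+, CD73- and unsorted cells. On day 9 its intensity was 874, 589, 793 and 735 in the same order, with 991 in SC4 and 1152 in ESC. No reprogramming array came near the MEF value, and the mean was at least 7.52-fold above it, a bound that leaves its order with Mcm10 undecided.

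Cdt1, the partner of Cdc6, had an intensity of 245 in MEF, of 1437, 1204, 1571 and 1886 at day 6 in CD49d+, CD73+, CD73- and unsorted cells, and then 1561, 961, 1427 and 1587 on day 9. SC4 had 1844 and ESC 2888, so that ESC stood above all 8 reprogramming arrays and the lowest of these was CD73+ at day 9. Its range over the 11 arrays was 3.56 on the log2 scale, and that of Cdc6, a lower bound because MEF is at the floor, was at least 3.53. The helicase subunits Mcm2 to Mcm7 were 3.01-fold (Mcm4) to 5.56-fold (Mcm6) above MEF in the mean of the 8 arrays.

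Mcm5, a subunit of that ring, was at 621 in MEF and at 3268, 3288, 3240.5 and 3184 at day 6 in CD49d+, CD73+, CD73- and unsorted cells. Its day 9 intensities were 3511, 2894, 3373 and 2940.0, with 3679 in SC4 and 4417 in ESC. The 8 reprogramming arrays lay close together, all above MEF and all below SC4 and ESC. Cdc45, a further helicase partner, stood 3.03-fold above MEF in the mean of the 8 arrays, and the GINS subunits Gins1 and Gins2 differed: Gins1 was at the floor in MEF and at 233 to 397 in reprogramming cells, while Gins2 was 1.72-fold above MEF.

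The clamp, its loader and the polymerases also differed among themselves. Pcna, the sliding clamp, was at 1881 in MEF and at 5309, 5489, 5370.1 and 5268 at day 6 in CD49d+, CD73+, CD73- and unsorted cells. On day 9 it was at 5552, 5369.7, 5529 and 5047, with 5322 in SC4 and 5113 in ESC. Over the 8 reprogramming arrays it had the narrowest range of the replication members, 0.14 on the log2 scale, and ESC lay inside that range. Pola1 and Pole, catalytic subunits of polymerases alpha and epsilon, were 3.79-fold and 5.18-fold above MEF in the mean of the 8 arrays. Rfc3, a subunit of the clamp loader, was 1.84-fold above it and Chaf1a and Chaf1b, which place histones on new DNA, 3.53-fold and 3.90-fold.

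Fen1, which trims the flaps of the lagging strand, was at 247 in MEF, at 473, 499, 529 and 555 at day 6 in CD49d+, CD73+, CD73- and unsorted cells, and then 543, 351, 513 and 511 on day 9. SC4 had 531 and ESC 504. Its range over the 11 arrays was the second narrowest of the class, 1.17 on the log2 scale, and CD73+ at day 9 was the reprogramming array nearest to MEF.

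The enzymes that make the building blocks of DNA differed among themselves. Rrm2, the small subunit of ribonucleotide reductase, was at 865 in MEF and at 3004, 2892, 3048 and 3154 at day 6 in CD49d+, CD73+, CD73- and unsorted cells. On day 9 Rrm2 was at 3465, 2854, 3158 and 2989, with 3028 in SC4 and 2986 in ESC, so ESC lay inside the range of the reprogramming arrays. Rrm1, the large subunit, was already at 2185 in MEF and had the narrowest range of the class over the 11 arrays, 1.04 on the log2 scale.

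Rrm1 was at 3879, 3636, 3884 and 3814 at day 6 in CD49d+, CD73+, CD73- and unsorted cells, and then 4208, 3339, 3612 and 3560.0 on day 9, with 4482 in SC4 and 3417 in ESC. The mean of the 8 arrays was 1.71-fold above MEF, the smallest fold among the 46 members. Tyms, thymidylate synthase, was 2.25-fold above MEF, and it was the only member lower in ESC (802) than on all 8 reprogramming arrays.

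Folds over MEF varied within each group of mitotic members. Nusap1, a spindle microtubule protein, had the largest fold of the class in the mean of the 8 arrays, 7.41-fold. Bub1b, a kinase of the spindle checkpoint, was at 148 in MEF and at 904, 970.4, 1192 and 1036 at day 6 in CD49d+, CD73+, CD73- and unsorted cells. On day 9 it was at 1197, 691, 1021 and 740.5, with 1316 in SC4 and 1981 in ESC. Its range over the 11 arrays, 3.74 on the log2 scale, was the widest of the mitotic members, and the lowest reprogramming arrays were CD73+ and unsorted cells at day 9.

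Birc5, a subunit of the chromosomal passenger complex, was at 104 in MEF, close to the floor, at 501, 529, 642 and 606 at day 6 in CD49d+, CD73+, CD73- and unsorted cells, and then 589.7, 463, 548 and 426 on day 9. SC4 had 638 and ESC 1304, so ESC stood well apart from all other arrays. Aurkb, the kinase of that complex, was 3.43-fold above MEF in the mean of the 8 arrays. The checkpoint kinases Bub1 and Ttk were 4.51-fold and 5.09-fold above it, and the kinetochore proteins Cenpe and Cenpf 3.43-fold and 1.97-fold.

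The cyclins and kinases that start mitosis also spread. Cdk1, the mitotic cyclin-dependent kinase, was at 1534 in MEF and at 3128, 2124, 3155 and 3681 at day 6 in CD49d+, CD73+, CD73- and unsorted cells. On day 9 it was at 3547, 2355, 2360.5 and 3239, with 3932 in SC4 and 4259 in ESC. Both CD73+ arrays and CD73- at day 9 lay under 2-fold above MEF, and the other 5 reprogramming arrays lay above that line.

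Plk1, a kinase that acts from mitotic entry to exit, was at 849.9 in MEF and at 2692, 2322, 2658 and 2846 at day 6 in CD49d+, CD73+, CD73- and unsorted cells. On day 9 it was at 3273, 2162, 2585 and 2705, with 2855 in SC4 and 4287 in ESC, and CD73+ cells were the lowest of the reprogramming arrays on both days. The cyclins Ccna2 and Ccnb2 were 3.73-fold and 2.30-fold above MEF in the mean of the 8 arrays, the spindle pole kinase Aurka 4.35-fold and its activator Tpx2 2.24-fold.

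Top2a, which untangles sister chromatids, was at 534 in MEF, at 2001, 2278, 2353 and 2158 at day 6 in CD49d+, CD73+, CD73- and unsorted cells, and then 2245, 2245, 2301 and 1792 on day 9. SC4 had 2519.9 and ESC 3868, both above every reprogramming array. Mki67, which coats mitotic chromosomes and is the usual marker of proliferating cells, was at 670.0 in MEF and at 2763, 3179, 2892 and 2283 at day 6 in the same order. At day 9 Mki67 was at 2916, 2957, 2839 and 1851, with 3049 in SC4 and 2804 in ESC, so the 2 unsorted samples were its lowest reprogramming arrays and ESC did not stand out.

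Ube2c, the ubiquitin-conjugating enzyme of the anaphase-promoting complex, was at 1239 in MEF, at 2670.5, 2758, 2758 and 2758 at day 6 in CD49d+, CD73+, CD73- and unsorted cells, and then 2758, 2916, 2758 and 2751 on day 9. SC4 had 2833 and ESC 2827. The same deposited value recurred on 5 arrays, and its range over the 8 reprogramming arrays, 0.13 on the log2 scale, was the narrowest of the class. Cdc20, an activator of the same complex, was 3.15-fold above MEF. The spindle motors Kif11 and Kif20a were 4.48-fold and 2.74-fold above it, the cytokinesis genes Kif23 and Ect2 2.28-fold and 3.82-fold, and Rangap1, which sets the Ran gradient, 2.34-fold.

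**Figure D2:**
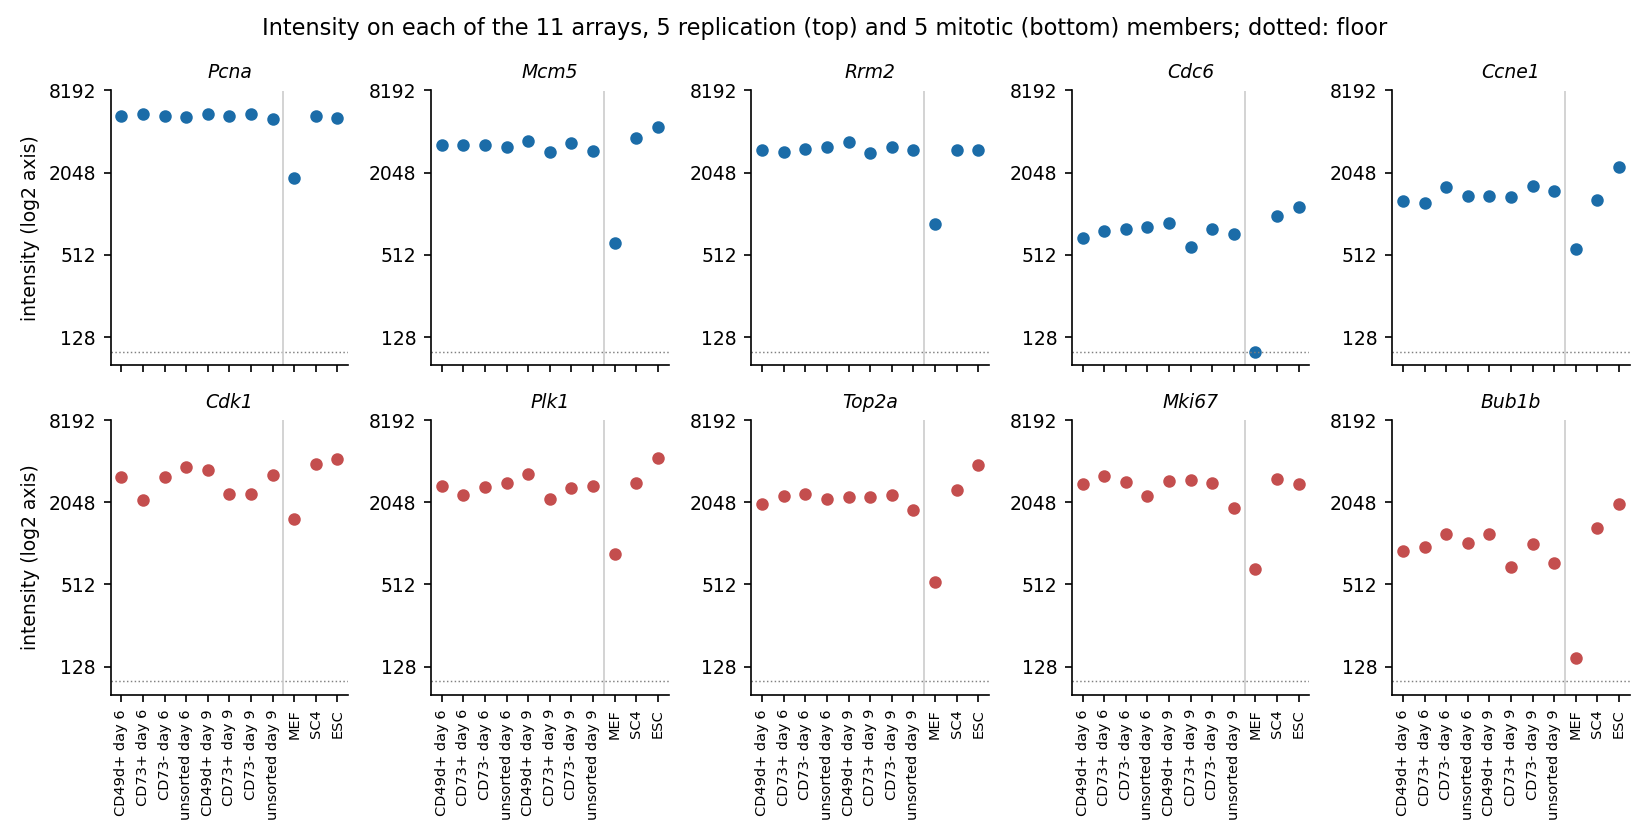
Intensity on a log2 axis of 5 replication members (top) and 5 mitotic members (bottom) on each of the 11 arrays, with the floor of 100 dotted and the controls to the right of the grey line. MEF is the lowest array in all 10 panels, at the floor for Cdc6, while ESC is the highest for Mcm5, Cdc6, Ccne1, Cdk1, Plk1, Top2a and Bub1b but not for Pcna, Rrm2 or Mki67.

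Other genes of both processes were also above MEF. In the mean of the 8 arrays, 33 of 38 further replication genes and 31 of 40 further mitotic genes were at least 2-fold above it, and none was 2-fold lower. Ticrr, an origin firing factor, and Kif15, a spindle motor, led those lists with differences of 3.18 and 2.88 on the log2 scale. Among 23 transcription regulators of the cell cycle, 7 were at least 2-fold above MEF, led by the E2F repressor E2f8 with 1.75. E2f1, an activator of replication genes, was at 598 in MEF and at 554 to 626 in reprogramming cells, which includes the MEF value. It was at 804 in SC4 and 1213 in ESC. Of the 6 G1 cyclins and kinases only Cdk6 passed 2-fold, with 1.44.

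ESC and the reprogramming arrays differed more in mitotic than in replication members. The median log2 difference, ESC minus the mean of the 8 arrays, was 0.66 for mitotic members (1.58-fold), 0.30 for replication members (1.23-fold) and -0.02 for all genes. At least 2-fold higher in ESC were 7 mitotic members and 1 replication member, against 6.64% of 13895 genes, and no member was 2-fold lower, against 6.23%. The 7 were Cenpf (2.70-fold), Birc5 (2.44-fold), Ttk (2.39-fold), Bub1 (2.11-fold), Bub1b (2.08-fold), Kif23 (2.05-fold) and Ccnb2 (2.04-fold). Cdt1 was the replication member, with 2.02-fold. All of these are single arrays of 1 line against cells in other medium, with no test of the difference between the classes.

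ESC stood above all 8 reprogramming arrays for 21 of 23 mitotic members, the exceptions being Mki67 and Ube2c, and for 15 of 23 replication members, against 27.3% of 13895 genes. The 8 replication members that did not were Pcna, Rrm1, Rrm2, Rfc3, Pola1, Pole, Tyms and Fen1, which are clamp, polymerase, nucleotide and flap genes, while all of Mcm2 to Mcm7 did. The further genes showed a like split, with a median of 0.73 for 40 mitotic genes, 9 of them at least 2-fold higher in ESC, and of 0.27 for 38 replication genes with 2 at least 2-fold higher. Mybl2, a factor that drives mitotic genes together with the MuvB complex, was at 514 in MEF, at 1212 to 1778 in reprogramming cells, at 1778 in SC4 and at 5279 in ESC. Stem cell markers moved with this comparison. Their summed intensity was 32274 in ESC, with 12 of 12 above the floor, and 1819.9 to 2817 in reprogramming cells, where 2 to 5 of 12 were above it. Among those counted there, Tfcp2l1 and Dppa4 lay near the floor, at no more than 120 and 111. A marker at the floor adds 100 to this and to every later marker sum. The part of these markers in the result was not tested.

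**Figure D3:**
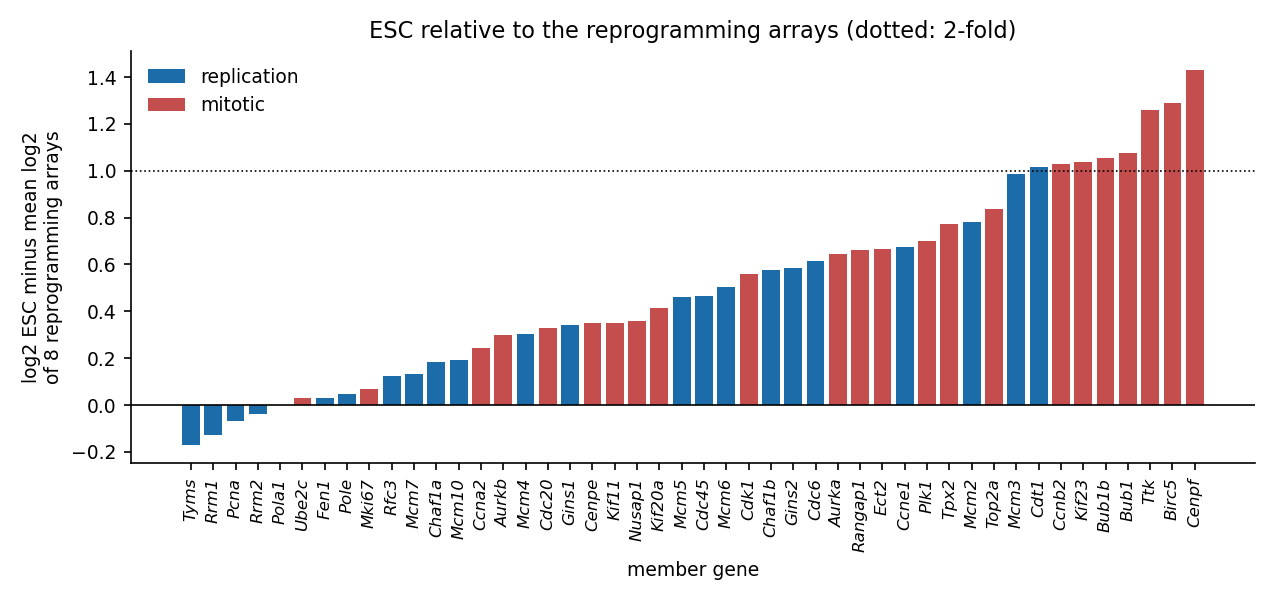
Log2 intensity in ESC minus the mean log2 intensity of the 8 reprogramming arrays, 1 bar per member, with mitotic members in red, replication members in blue and 2-fold dotted. The 8 bars past the dotted line are 7 mitotic members and Cdt1, and the 5 lowest, Tyms to Pola1, are replication members.

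By the class medians, SC4 lay closer to the reprogramming arrays than ESC did. No member was 2-fold higher or lower in SC4 than in their mean (backgrounds 2.55% and 3.85% of 13467 genes), with medians of 0.19 for replication and 0.20 for mitotic members. All 23 mitotic and 18 of 23 replication members were higher in SC4, as were 45.2% of genes. SC4 stood above all 8 reprogramming arrays for 13 of 23 replication and 11 of 23 mitotic members, against 18.7% of genes. Some members of both classes were further from the mean of the 8 in SC4 than in ESC, among them Rfc3 (0.83 against 0.12). ESC against SC4 gave medians of 0.06 and 0.36, and 3 members, all mitotic, were at least 2-fold higher in ESC, against 8.05% of genes. On the way from MEF to ESC, set at 0% and 100% for each gene at least 2-fold higher in ESC, the mean of the 8 arrays lay at a median of 83.8% for 22 replication members, 71.7% for 23 mitotic members and 62.1% for 1715 genes.

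Few members passed a test between the sorted populations. Of the 46 members, 1 passed the test of poised against non-poised cells, CD73- subtracted from the mean of CD49d+ and CD73+, at an adjusted p under 0.05 in limma, against 12% of 13313 genes (4.85% lower, 7.16% higher). The member was Ccne1, the cyclin that opens S phase, which fell by 0.31 ± 0.0537 (SE) on the log2 scale (adjusted p = 0.0289). The median difference was -0.08 for replication members, -0.13 for mitotic members and -0.01 for all genes. At an unadjusted p under 0.05, 3 members were lower and none higher, against 15.8% and 14.7% of genes. These counts and their backgrounds rested on single arrays. The share of genes called was 0.00753% without unsorted cells of day 6, 0.385% without CD73- of day 6, 0.987% without CD73- of day 9, 1.88% and 1.61% without CD73+ of day 6 and day 9, and 5.94% and 4.36% without CD49d+ of day 6 and unsorted cells of day 9. Without CD49d+ of day 9 it was 13.4%, with 3 members called and 19 lower at an unadjusted p under 0.05, a count that was 5 without CD73+ of day 6 and 1 without either array of CD73-.

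Ccne1 was at 1263 and 1229 in CD49d+ and CD73+ cells of day 6 against 1606 in CD73- cells and 1374 in unsorted cells. On day 9 it was at 1374 and 1353 in the poised populations against 1624 in CD73- and 1494 in unsorted cells. All 4 poised arrays lay below both CD73- arrays, but these are the values that the test used and add nothing to it. MEF had 564, SC4 1294 and ESC 2248. The test rested on small margins: of 15 alternative settings 6 kept the call, with adjusted p between 0.0184 and 0.164. The call was lost when any 1 array other than CD49d+ at day 9 was left out.

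No other member passed. The lowest replication estimates after Ccne1 were those of Gins1, at -0.26 (adjusted p = 0.487). The highest were Cdc45, at 0.03 (0.901), and Rrm1, at 0.0027 (1.0). The lowest mitotic estimates were Cdc20, at -0.32 (0.0729), and Ttk, at -0.31 (0.332), and the highest Ccnb2, at 0.16 (0.439), and Cenpf, at 0.05 (0.813). All are limma estimates with Benjamini-Hochberg adjustment.

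Taken apart, the poised populations shared the CD73- arrays as their comparison and are given side by side. In CD73+ minus CD73-, Ccne1 fell by 0.33 ± 0.062 (adjusted p = 0.0447, limma), alone among the members, against 8% of genes (2.94% lower, 5.06% higher). Of 15 alternative settings only 3 kept this call, and the estimate ran from -0.38 to -0.27 over them all. Cdc20 was at -0.41 (0.0678), Bub1b at -0.43 (0.307), Cdt1 at -0.48 (0.0756) and Rfc3 at -0.52 (0.145). The highest estimates were Mki67 at 0.10 (0.605), Ube2c at 0.04 (0.728), Tyms at 0.02 (0.918) and Pcna at -0.01 (1.0). At an unadjusted p under 0.05, 7 members were lower and none higher, against 14.4% and 13.6% of genes. That count was 2 without CD73+ of day 9, 3 without CD73- of day 6, 4 without unsorted cells of day 6, and 14 when the one or the other CD49d+ array was left out. The share of genes called was at most 0.0153% when any 1 array of CD73+, CD73- or unsorted cells was left out, and 6.92% and 7.61% without a CD49d+ array.

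In CD49d+ minus CD73-, Ccne1 fell by 0.29 ± 0.062 (adjusted p = 0.0427, limma), again alone among the members, against 13.3% of genes (5.66% lower, 7.69% higher). Again only 3 of 15 alternative settings kept the call, and the estimate ran from -0.35 to -0.24 over them all. Gins1 was at -0.30 (0.475), Kif23 at -0.35 (0.135) and Ttk at -0.31 (0.390). The highest were Rfc3 at 0.38 (0.236), Ccnb2 at 0.29 (0.233), Cdk1 at 0.29 (0.313) and Cdc45 at 0.13 (0.503). At an unadjusted p under 0.05, 2 members were lower and none higher, against 15.5% and 15.4% of genes. Without CD49d+ of day 9 the count was 16 lower, without CD49d+ of day 6 it was 1 lower and 5 higher, without CD73- of day 6 it was 1 lower and 2 higher, and without any 1 of the other 5 arrays it was 1 lower. The share of genes called lay between 0.00753% and 9.08% when any 1 array was left out, the lowest being without unsorted cells of day 6.

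The days behind these estimates did not look alike. CD73+ cells were below CD73- cells on both days for 37 of 46 members (80.4%), against 40% of all genes, and above them on both days for Mki67 and Nusap1 (4.35% of members, 29.8% of genes). CD49d+ cells were below CD73- cells on both days for 17 members (37%), close to the 36% of all genes. Another 22 members (47.8%) were below at day 6 and above at day 9, among them Mcm6, Pcna, Rrm2, Cdk1, Aurkb and Bub1b, against 10.8% of genes, and none went the opposite way, against 12.8%. Without the day 6 array of CD49d+ cells, the medians of CD49d+ minus CD73- turned from -0.04 to 0.11 for replication members and from -0.10 to 0.08 for mitotic members. Without their day 9 array the medians were -0.18 and -0.24.

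Between the poised populations few genes of any kind passed. In CD49d+ minus CD73+, 0 members passed in limma, where 4 of 13313 genes (0.03%) did, 0.00751% higher and 0.0225% lower. At an unadjusted p under 0.05, 7 members were higher in CD49d+ and none lower, against 13.1% and 11% of genes. The count was 18 higher without CD49d+ of day 6, 3 higher without CD73+ of day 9, and 4 higher with 3 lower without CD49d+ of day 9. Rfc3 was furthest apart, at 0.90 (adjusted p = 0.0751), with intensities of 554 and 720.0 in CD49d+ against 329 and 347 in CD73+ cells at day 6 and day 9. Cdk1 followed at 0.57 (0.123), Cdt1 at 0.48 (0.101) and Plk1 at 0.41 (0.115). The lowest were Pole at -0.14 (0.557), Tyms at -0.12 (0.355), Cenpe at -0.15 (0.601) and Mki67 at -0.11 (0.567). Rfc3 passed when the arrays were centred or quantile normalized (adjusted p = 0.0412 and 0.0497), and Rangap1 when quantile normalized (0.0429). In those settings 4.73% and 6.11% of genes passed, against 0.03% in the deposited scaling, and 2.09% did with an intensity trend. By day, 27 members (58.7%) were lower in CD49d+ than in CD73+ cells at day 6 and higher at day 9, against 16.8% of genes. None went the opposite way, against 11.1%. On both days 14 members were higher in CD49d+ (30.4%, against 36.5% of genes) and 4 lower (8.7%, against 29.6%).

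Few cell cycle genes outside the list passed. In poised against CD73- cells, where 12% of all genes passed, the counts were 1 of 38 further replication genes, 1 of 40 further mitotic genes and 3 of 23 regulators, so the first and second lists lay below that share. At an unadjusted p under 0.05 in limma, 12 further replication genes were lower and 0 higher, against 15.8% and 14.7% of genes. Further mitotic genes gave 3 lower and 1 higher, and regulators 2 and 4. Estimates lay below 0 for 35 of the 38 and 33 of the 40, with medians of -0.16 and -0.10 against -0.01 for all genes. Hells, a chromatin remodeler of S phase, fell by 0.44 ± 0.0964 (adjusted p = 0.0482, limma). Cdc25b, a phosphatase that activates Cdk1, rose by 0.51 ± 0.0631 (0.0138). The 3 regulators all rose: Rb1, the retinoblastoma protein that holds E2F in check, by 0.59 ± 0.0837 (0.0194), E2f2 by 0.42 ± 0.0756 (0.0314) and Lin37, a MuvB subunit, by 0.31 ± 0.0669 (0.0489).

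Rb1 was at 3506 and 3097 in CD49d+ cells, at 4064 and 3908 in CD73+ cells, at 2426 and 2397 in CD73- cells and at 2461 and 1935 in unsorted cells, at day 6 and day 9. Both poised populations lay above the others on both days, again in values that the test used, and MEF (889) and ESC (948) lay below all of them. In CD73+ minus CD73-, Rb1 rose by 0.72 (adjusted p = 0.0233), its relative Rbl2 by 0.65 (0.0424) and Cdk6, a G1 kinase, by 0.32 (0.0462), while Rfc5, a clamp loader subunit, fell by 0.48 (0.0315).

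In CD49d+ minus CD73-, Cdc25b rose by 0.73 (adjusted p = 0.0104, limma), E2f2 by 0.51 (0.0281), Lin37 by 0.47 (0.0260) and Rb1 by 0.45 (0.0444). Hells fell by 0.64 (0.0289), and the origin recognition subunits Orc2 and Orc4 fell by 0.61 (0.0365) and 0.47 (0.0368). None of the further genes passed in CD49d+ minus CD73+ or in day 9 minus day 6. At an unadjusted p under 0.05, 9 of 38 further replication genes, 7 of 40 further mitotic genes, 6 of 23 regulators and 1 of 6 G1 genes did so in the first of these comparisons, against 24.1% of all genes, and 2, 0, 2 and 1 in the second, against 11.6%. At the same p, 10 of the 38 were lower and 1 higher in CD73+ minus CD73-, against 14.4% and 13.6% of genes. In CD49d+ minus CD73- the counts were 9 and 0, against 15.5% and 15.4%.

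Between the days no member passed. In day 9 minus day 6 over the 4 populations, 0 of 46 members and 0 of 13313 genes (0%) reached an adjusted p under 0.05 in limma, and 0 members reached an unadjusted p under 0.05, against 6.08% of genes lower and 5.52% higher. When the one or the other CD49d+ array was left out, 7 members were lower at an unadjusted p under 0.05. The medians were -0.05 for replication members, -0.04 for mitotic members and -0.01 for all genes. The lowest estimates were Gins2 at -0.17 (adjusted p = 0.540), Pola1 at -0.15 (0.594), Ttk at -0.22 (0.637) and Bub1b at -0.20 (0.703). The highest were Ccne1 at 0.10 (0.480), Rrm2 at 0.04 (0.836), Kif23 at 0.09 (0.750) and Rangap1 at 0.08 (0.603).

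The populations took different directions behind that average. In CD49d+ cells all 46 members were brighter at day 9 than at day 6, where 51.5% of 12476 genes were, and all 46 remained so under each of 3 other scalings or probe set choices. The median was 0.14 for replication and 0.18 for mitotic members, from 0.03 (Tyms) to 0.44 (Gins1). In CD73+ cells 39 members were dimmer at day 9, as were 59.2% of genes, with medians of -0.14 and -0.08 against -0.04 for all genes. In unsorted cells 43 were dimmer, as were 57% of genes, with medians of -0.12 and -0.20 against -0.03. In CD73- cells 32 were dimmer, as were 42.1% of genes, and the medians were -0.02 and -0.03 against 0.03. The counts in these 3 populations moved with the scaling: centring the arrays gave 30 dimmer members in CD73+ (44.9% of genes), 44 in CD73- (64.4%) and 28 in unsorted cells (33.9%). With 1 array per population and day, the difference in direction was not tested.

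**Figure D4:**
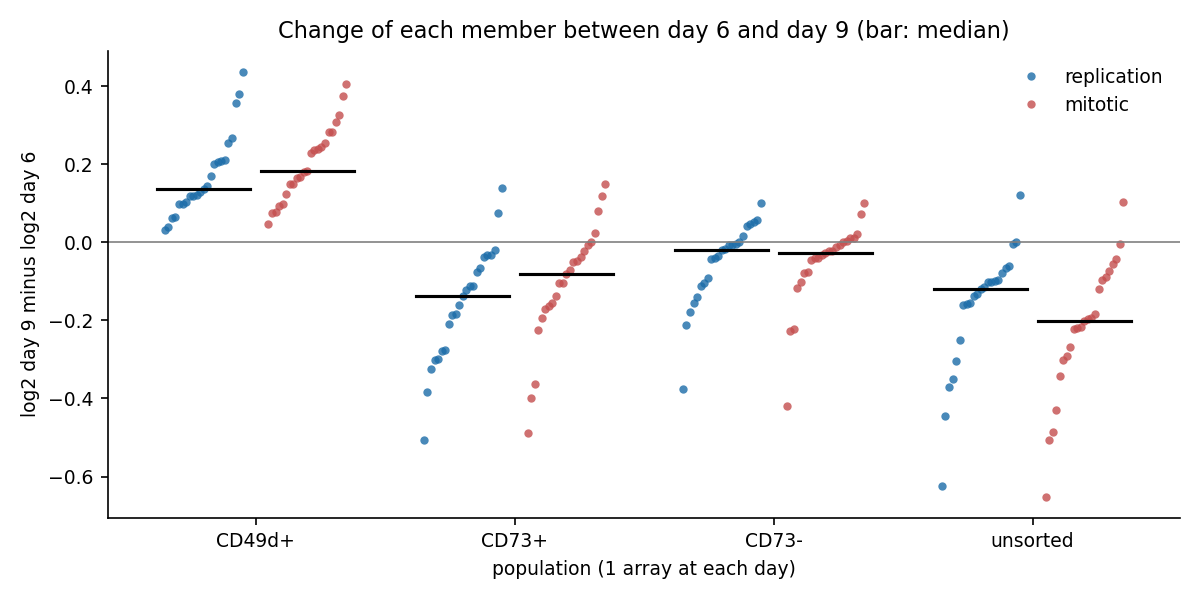
Log2 intensity at day 9 minus day 6 for each member in each population, with replication members in blue, mitotic members in red and the median as a bar. In CD49d+ cells all 46 points lie above 0, while 39 in CD73+ and 43 in unsorted cells lie below it.

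Over the 8 reprogramming arrays the members spread no more than other genes, with a median range of 0.48 on the log2 scale against 0.48 for all 13313 genes. The median range was 0.40 for replication and 0.50 for mitotic members. The widest were Rfc3 (1.13) and Rangap1 (0.94). The lowest array was unsorted cells of day 9 for 21 members, 13 of them mitotic, and CD73+ cells of day 9 for 17, 12 of them for replication, while 19.6% and 19.1% of all genes were lowest there. The highest was CD49d+ at day 9 for 15 members, CD73- at day 6 for 14 and unsorted cells at day 6 for 8, against 10.4%, 12.1% and 13.3% of genes. These orders are those of the deposited scaling. With arrays centred, the replication median relative to the mean of the 8 arrays moved from -0.06 to 0.01 in unsorted cells of day 9. In CD73+ cells of day 6 the replication and mitotic medians moved from 0.01 and 0.02 to -0.03 and -0.03.

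Fibroblast markers also differed among these arrays, with their highest and lowest sums on the arrays where most members were lowest in the deposited scaling. Of 11 markers measured, all were above the floor in unsorted cells of day 9, with a summed intensity of 14232, the highest of the 8, and 8 were in CD73+ cells of day 9, with 3728, the lowest. Pdgfra and Pdgfrb were at the floor on both CD73+ arrays. The sum was 9756 at day 6 and 5846 at day 9 in CD49d+ cells, and 10064 in unsorted cells of day 6. Between these were CD73- cells with 7169 at day 6 and 9461 at day 9, and CD73+ cells of day 6 with 4765. The part of these cells in the members' levels was not tested.

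**Figure D5:**
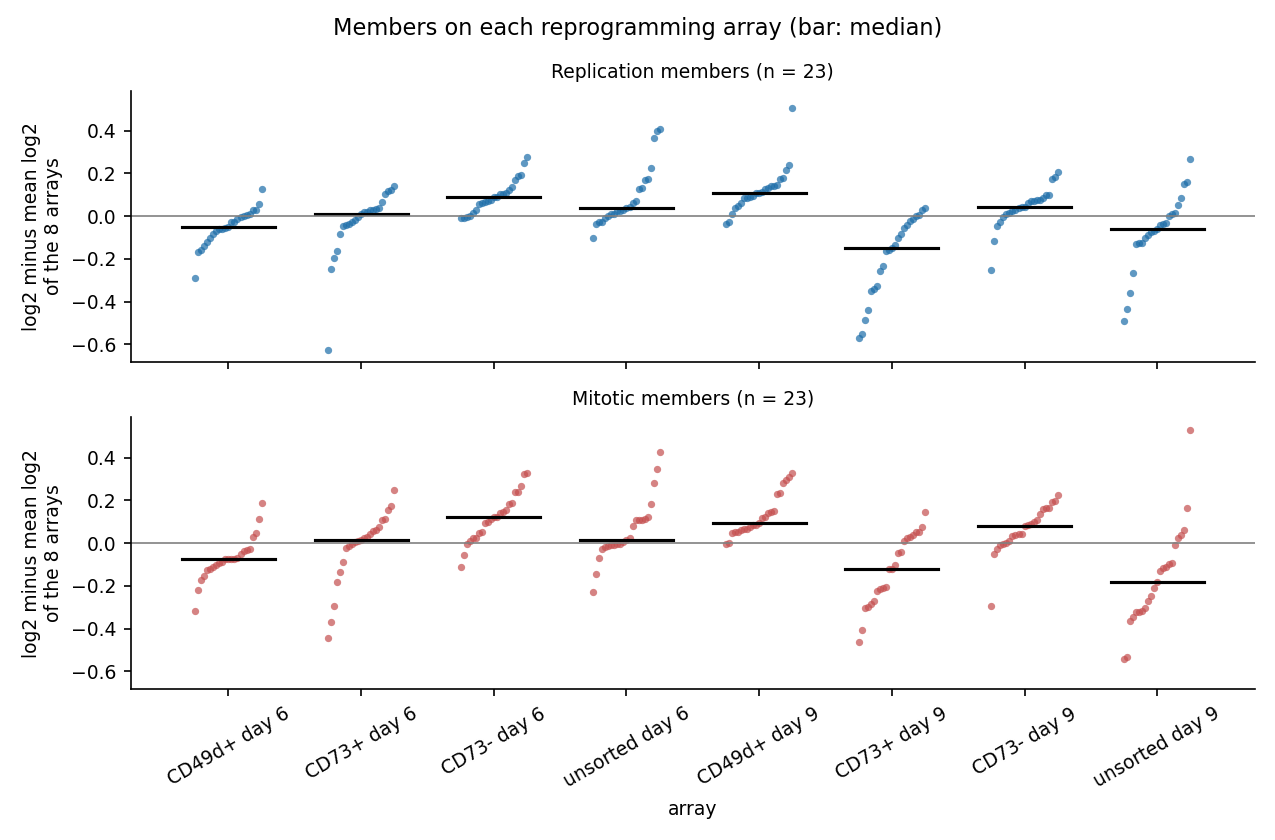
Log2 intensity of each member minus its mean over the 8 reprogramming arrays, with 1 point per member, ordered by value, and the median as a bar, for replication (top) and mitotic members (bottom). In the deposited scaling, medians lie below 0 for CD49d+ at day 6, CD73+ at day 9 and unsorted cells at day 9. They are highest for CD73- at day 6 and CD49d+ at day 9.

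Most members rose and fell with their own class from array to array, and with the other class as well. The Pearson correlation of a member with the median of the other members of its class was taken, and not computed for other genes. Over the 11 arrays it had a median of 0.96 for replication and 0.97 for mitotic members. Among these arrays MEF was lowest for every member, and ESC stood above all 8 reprogramming arrays for 15 of 23 replication and 21 of 23 mitotic members. Over the 8 reprogramming arrays the medians were 0.67 and 0.75. With the median of the other class, the medians were 0.95 for replication and 0.96 for mitotic members over the 11 arrays. Over the 8 they were 0.67 and 0.62. Closest to its own class was Tpx2 (0.96) among mitotic and Mcm6 (0.94) among replication members. Rangap1 (-0.23), Ube2c (-0.19), Cdk1 (0.02), Tyms (0.11) and Ccne1 (0.29) followed it least. Rangap1 was brightest in unsorted cells, at 2098 and 2256 on day 6 and day 9, against 1177 to 1612 in the sorted populations. These are descriptions over arrays that share cultures and processing.

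The labels were checked on the same arrays. Nt5e (CD73) and Itga4 (CD49d) summed to 4292 to 4864 in the CD49d+ and CD73+ arrays, to 462 and 485 in the CD73- arrays and to 4304 in SC4. Nt5e was at 2828 and 2704 in CD49d+ cells of day 6 and day 9 and at 3438 and 3658 in CD73+ cells. Itga4 was at 1859 and 1588 in CD49d+ cells and at 1082 and 1206 in CD73+ cells. Each gene was brighter in the poised population sorted on it, but neither was specific to that population. Fibroblast markers summed to 47905 in MEF, with 11 of 11 above the floor, and to 1998 in SC4 and 3824.5 in ESC, where 5 and 10 were. Of the 12 stem cell markers, 4 were above the floor in SC4: Fgf4 at 1763, Utf1 at 160, and Tfcp2l1 and Dppa4 next to the floor at 101.3 and 100.5. Nanog, Zfp42, Esrrb and Sox2 were among those at it. Sox2 was also at the floor on all 8 reprogramming arrays, whose cells had received inducible Sox2. Epithelial markers summed to 1449.6 to 3512 in reprogramming cells and 10155.5 in ESC. Of 8 macrophage and blood cell markers 1 or 2 were above the floor on every array, with sums of 1056 to 2286. Cd68 was above it throughout, at 356 to 1062. Laptm5 reached 1203 in SC4, 344 in ESC and 335 in CD49d+ cells of day 9. The others, Ptprc and Csf1r among them, stayed at the floor. Endothelial markers summed to 929 to 2408 and skeletal muscle markers to 844 to 2500. Among the endothelial markers, Tek was at 1055 to 1673 in the poised populations and at 459 to 738 in CD73- and unsorted cells. It was at 117 in MEF, 1299 in SC4 and 100 in ESC.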

How the data were processed

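Biotin-labelled RNA of 11 samples was hybridised to Affymetrix arrays, 1 per group. The deposited values are linear intensities of 41345 probe sets, none below 100, and that floor holds 52.1% to 54.3% of an array's probe sets. Partek is named in the submitters' processing notes, without a version. The summarisation, background correction and scaling behind them were steps not given in the sources used here, so an array-wide difference in brightness cannot be told from biology and 2 other scalings were run.

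Probe sets with 1 symbol in the platform annotation (23521 of 41345) were used, and the brightest probe set over the 11 arrays stood for a gene. Log2 of the deposited intensity was taken. Of 22180 named genes, 14301 exceeded the floor on 1 or more arrays and 13313 on 1 or more of the 8 reprogramming arrays. The latter were fitted with limma 3.58.1 (R 4.3.3; lmFit, eBayes) on population and day, with 3 residual degrees of freedom and Benjamini-Hochberg adjustment over all of them. A p therefore measures only agreement between days or populations, and the spread may be technical. The script was tested on simulated data. Controls were compared without a test, counting members at 2-fold among genes above the floor on either side.

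Members named per comparison were those that passed and, where fewer than 4 did, the 2 highest and 2 lowest of each class. Values on every array were given for Ccne1, Ccne2, Pcna, Mcm5, Rrm2, Cdk1, Ccnb1, Top2a, Mki67 and Plk1, as far as measured, for the 2 members of each class with the widest and narrowest range, and for those passing against CD73- cells. The members, the further cell cycle lists and the marker lists were chosen with earlier results of these data known. Promoters came from RefSeq on GRCm38.p6.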

Additional observations from a re-analysis of the deposited data

Results flagged for a closer look

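The change from day 6 to day 9 ran in opposite directions in different populations. The median log2 difference, day 9 minus day 6, over replication members was 0.137 in CD49d+ cells, -0.138 in CD73+ cells, -0.02 in CD73- cells and -0.119 in unsorted cells. Over mitotic members it was 0.184 in CD49d+ cells, -0.0806 in CD73+ cells, -0.0269 in CD73- cells and -0.202 in unsorted cells. In CD49d+ cells all 46 members were brighter at day 9 under each scaling. In the other populations the size depended on it: with arrays centred, the replication and mitotic medians were 0.13 and 0.18 in CD49d+, -0.08 and -0.03 in CD73+, -0.10 and -0.11 in CD73- and -0.0037 and -0.09 in unsorted cells. The difference between populations was not tested, since each population has 1 array at each day.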

How the results depend on the processing

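Within the reprogramming arrays the number of members called depended on the setting. For poised minus CD73- it was 2 after centring and with an intensity trend, where 17% and 13.4% of genes passed, and 0 without the day term or with sorted arrays only. Leaving out 1 array gave 0 to 3. For CD73+ minus CD73- it was 3 with quantile normalization, centring or the trend, where 11.5%, 12.8% and 8.79% of genes passed. It was 0 when the p adjustment of the same fit counted all 22180 named genes, without the day term or with sorted arrays only. Leaving out 1 array gave 0 to 1. For CD49d+ minus CD73- it was 0 after centring, with the adjustment over all named genes, without the day term, with sorted arrays only and without any 1 array. For CD49d+ minus CD73+ it was 2 with quantile normalization and 1 after centring, where 6.11% and 4.73% of genes passed. For day 9 minus day 6 it was 0 in every setting. The calls gained were Cdc20, Cdt1, Rangap1, Rfc3 and Kif23. The counts of members at least 2-fold above MEF stayed within 1.5 times under all 3 alternatives, and the mitotic median for the mean of the 8 arrays moved from 1.78 to 1.66 after centring. Replicates could not be paired because each group has 1 array. The day, which the populations share, was a term of the fit, so populations were compared within days, and without it Ccne1 no longer passed in poised minus CD73- (limma adjusted p = 0.0515). Where both arrays of a comparison lie at the floor no difference can be seen, and 1 array per group limits the precision throughout.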
